A study of Mus musculus with 8 samples.

Results

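This account describes unedited E14TG2a mouse embryonic stem cells as the 2 samples titled WT recorded them, 2 of the 8 samples in the series. The members were chosen by that title alone, and the 6 samples of enhancer knockout cells were not used. E14TG2a is an established stem cell line of strain 129/Ola. The WT cells carried no engineered deletion. They were grown at passages 3 to 6 on gelatin without a feeder layer, in medium with 15% fetal bovine serum, leukaemia inhibitory factor (LIF, 1000 U per mL), the GSK3 inhibitor CHIR99021 and the MEK inhibitor PD0325901. Total RNA was isolated with Trizol and sequenced from both ends at 150 bases, and the labels call the 2 libraries biological duplicates. Whether they came from separate cultures of 1 WT stock is not stated. The series asks how associations between enhancers and promoters bear on what Sox2 does, and WT is its reference condition.

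As background, LIF binds a receptor of LIFR and gp130 and activates the kinase JAK1 and the transcription factor STAT3. Inhibition of GSK3 stabilises beta-catenin and relieves repression by TCF7L1, and inhibition of MEK blocks the ERK cascade through which FGF4 drives stem cells out of the naive state. Cells under these conditions are known for a network of transcription factors around OCT4, SOX2 and NANOG, which keeps lineage regulators low. Serum in the medium makes this culture differ from the serum-free form of the same inhibitor scheme.

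Levels are in FPKM, a fragment count corrected for how long the transcript is and how many fragments the library gave, so levels of different genes can be set side by side per length. In each pair of values WT replicate 1 stands first and WT replicate 2 second. A gene counts as expressed here at 1 FPKM or more in both samples. By that rule 10989 of 17730 genes were expressed, 62%, the share to set beside the counts of each list and family below. A further 6333 genes, 35.7%, lay under 1 FPKM in both samples, and 1359 genes, 7.66%, were listed at 0 in both. Another 1343 genes, 7.57%, were listed at 0 in 1 sample only. At 10 FPKM or more in both samples there were 6521 genes, 36.8%, and at 100 FPKM or more 722 genes, 4.07%. With 1 group and 2 samples no test was made, and a difference between genes is called beyond the replicate spread only where the 2 pairs of values do not overlap.

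The 2 samples were close to each other gene by gene. Over the 11197 genes whose mean reached 1 FPKM, Pearson's r of log2(FPKM + 1) was 0.9935 and Spearman's rho 0.9933. These are descriptions across genes, which are not independent replicates. The median absolute difference was 0.11 on the log2(FPKM + 1) scale. It was 0.14 for genes of 1 to 10 FPKM, 0.09 for genes of 10 to 100 FPKM and 0.07 above, and 97.6% of the genes lay within 0.5. The absolute depth is unknown. The most frequent ratio between low values put replicate 2 at 0.966 of the depth of replicate 1, from 17.6% of 1385 low ratios, which is a rough estimate.

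The 5 markers that define the cell type were all high, each above 100 FPKM in both samples. Nanog, a homeodomain factor of the naive network, stood at 467 and 450.4 FPKM and ranked 117 of all genes by mean. Pou5f1, which encodes OCT4, the POU factor without which the inner cell mass is lost, stood at 360.0 and 382 FPKM and ranked 145. Esrrb, an orphan nuclear receptor repressed by TCF7L1, stood at 218 and 252 FPKM and ranked 249. Klf4, a Kruppel-like factor induced through STAT3, stood at 159 and 181 FPKM and ranked 360. Sox2, the HMG-box partner of OCT4 at shared DNA sites and the gene the series is about, stood at 131 and 136 FPKM and ranked 513. The order of the 5 was the same in both samples, and no 2 neighbours in it overlapped. The labelled cell type thus had all 5 of its defining markers. Sox2 was the lowest of them in both samples, with the mean of Nanog above 3 times that of Sox2.

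The proximal promoters of these 5 genes are shown because they differ widely in CpG content at levels that are all high. Each line gives 100 bases before to 20 bases after the start that RefSeq lists first, on the gene's own strand from 5′ to 3′, from RefSeq on GRCm38.p6, with every CpG in capitals. The stretches are Nanog at chr6:122707389-122707508 on the plus strand, Pou5f1 at chr17:35505932-35506051 on the plus strand, Esrrb at chr12:86361017-86361136 on the plus strand, Klf4 at chr4:55532456-55532575 on the minus strand and Sox2 at chr3:34649895-34650014 on the plus strand.
Nanog: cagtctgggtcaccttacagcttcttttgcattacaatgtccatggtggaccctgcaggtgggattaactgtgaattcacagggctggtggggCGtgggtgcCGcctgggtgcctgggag
Pou5f1: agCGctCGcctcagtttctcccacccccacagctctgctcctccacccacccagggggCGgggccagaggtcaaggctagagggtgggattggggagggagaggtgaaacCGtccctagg
Esrrb: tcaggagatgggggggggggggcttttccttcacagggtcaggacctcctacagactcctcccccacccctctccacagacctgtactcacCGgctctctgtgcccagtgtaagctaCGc
Klf4: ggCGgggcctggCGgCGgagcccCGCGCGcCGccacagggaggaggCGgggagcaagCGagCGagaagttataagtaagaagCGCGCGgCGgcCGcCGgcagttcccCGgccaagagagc
Sox2: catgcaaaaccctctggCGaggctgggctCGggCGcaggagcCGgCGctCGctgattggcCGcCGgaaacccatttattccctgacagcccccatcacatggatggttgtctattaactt
The motif counted was CG, which reads the same on both strands, in the full window of 300 bases (250 before the start and 50 after it). Such windows were at hand for 80.9% of the genes whose mean reached 10 FPKM (5417 of 6698), and their median was 23 CpG. Nanog had 4, and 3.86% of these genes had as few or fewer. Esrrb had 7 and Pou5f1 had 11, with 7.22% and 13.3% of the genes at the same count or under it. Sox2 had 27 CpG, with 68.4% at or under, and Klf4 had 40, with 93% at or under. The 3 markers of highest level thus had the fewest CpG, and the 2 lowest markers had the most. This order is a description of 5 genes. Over all starts in the RefSeq table, 38.3% of windows held 4 or fewer CpG and the median was 7. Over all 17730 genes only 75% had a window, so no comparison of expressed with silent genes was made on it. Pou5f1, Nanog and Esrrb each have another start in the table, with 6, 4 and 7 CpG.

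**Figure D1:**
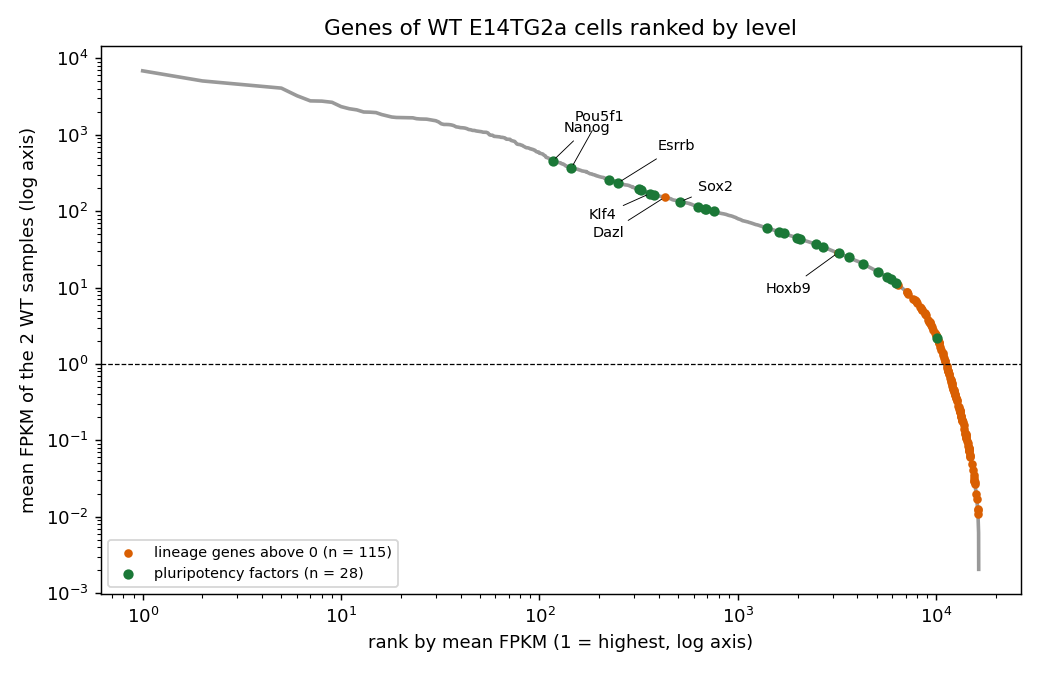
Genes above 0 FPKM ordered by mean level, with rank on the x axis and the mean FPKM of the 2 WT samples on the y axis, both on log scales, and a dashed line at 1 FPKM. The 28 pluripotency factors (green) all lie above the line, from Nanog at rank 117 downwards. The 115 lineage genes above 0 (orange) lie mostly below 10 FPKM, apart from Dazl, Hormad1, Hoxb9 and Hoxc13.

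Of 28 pluripotency transcription factors 28 were expressed, 27 of them at 10 FPKM or more in both samples, with a median of 57.0 FPKM against 4.34 over all genes. Beside the markers, the highest was Mybl2, a cell cycle factor of the MYB family, at 247 and 262 FPKM. Klf5, another Kruppel-like factor of the naive network, stood at 187 and 201 FPKM, and Klf2 stood at 109 and 121 FPKM. Zfp42, the zinc finger protein REX1 widely used as a naive reporter, stood at 189 and 192 FPKM, and Tfcp2l1, which is driven by both LIF and GSK3 inhibition, stood at 159 and 165 FPKM. Klf5 lay above Klf4 in both samples without overlap, and Klf2 below both. Tbx3, a T-box factor downstream of LIF, stood at 93.3 and 106 FPKM, and Prdm14, which holds FGF receptor signalling and DNA methylation down, stood at 19.5 and 21.7 FPKM. The lowest member was Gbx2, a homeobox gene, at 2.18 and 2.26 FPKM. Gbx2 was the one member under 10 FPKM in both samples.

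Of the other genes associated with pluripotency, 23 of the 23 with a row were expressed. Dppa5a, an RNA-binding protein of the early embryo, led at 718 and 769 FPKM. Trim28, the KAP1 corepressor that silences retroviral elements, stood at 636 and 626 FPKM, and Tdgf1, the NODAL co-receptor CRIPTO, at 369 and 344 FPKM. Fgf4, the main ERK-activating ligand of these cells, stood at 62.3 and 68.2 FPKM, while Lefty2 stood at 43.5 and 42.6 FPKM and Lefty1, also an inhibitor of NODAL, at 6.25 and 3.57 FPKM. Dppa3, known to vary from cell to cell in serum cultures, stood at 15.00 and 18.03 FPKM. The lowest was Eras, a RAS-like gene of stem cells, at 2.22 and 2.02 FPKM. Fut9 had no row in the tables used here.

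Genes of the formative and primed states were mixed, with 13 of 21 expressed against 62% of all genes. Igfbp2, a binding protein for insulin-like growth factors, was the highest at 250.4 and 248 FPKM. Otx2, the homeobox factor that leads the exit from the naive state, stood at 14.9 and 16.5 FPKM, and Dnmt3b, the de novo methyltransferase of the epiblast, at 15.3 and 17.3 FPKM. Tcf15 stood at 5.67 and 2.80 FPKM, and Lef1 at 1.32 and 1.20 FPKM. Sox3, the X-linked relative of Sox2, stood at 0.243 and 0.144 FPKM, and Cdh2, the neural and mesodermal cadherin, at 0.381 and 0.302 FPKM. Foxa2 was listed at 0.0346 and 0 FPKM, and Cer1 at 0 in both samples. Otx2 and Dnmt3b lay more than 6 times below the lowest of the 5 markers. Pou3f1, Fgf5 and Pim2 were not analysed here, since they had no row.

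The LIF receptor and its pathway were expressed in 11 of 13 members, 84.6% against 62% of all genes. Il6st, which encodes the shared subunit gp130, stood at 33.3 and 36.01 FPKM, and Lifr, the ligand-specific subunit, at 26.3 and 27.8 FPKM. Jak1 at 14.1 and 16.2 FPKM lay above Jak2 at 3.34 and 3.27 FPKM. Stat3, the effector, stood at 46.8 and 60.5 FPKM. The feedback inhibitor Socs3 stood at 62.9 and 69.7 FPKM, and the STAT3-responsive kinase gene Pim1 was the highest of the pathway at 98.1 and 110.1 FPKM. Osmr, the receptor for the related cytokine oncostatin M, stood at 0.155 and 0.0292 FPKM, and Cntfr, that for ciliary neurotrophic factor, at 0.324 and 0.314 FPKM. Il6ra, the receptor for interleukin 6, stood between at 5.76 and 6.52 FPKM. Both receptor subunits for LIF were thus above all 3 of these other receptors of the gp130 family in both samples.

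WNT receptors and transducers were expressed in 22 of 25 members, and WNT target genes in 9 of 14, close to the 62% of all genes. Ctnnb1, which encodes beta-catenin, was highest at 221 and 225 FPKM. The drug target had both forms on, with Gsk3a at 46.3 and 48.7 FPKM and Gsk3b at 24.00 and 24.4 FPKM. Fzd5 was the highest receptor at 35.5 and 36.7 FPKM, and Fzd1 the lowest at 0.0468 and 0.0971 FPKM. Among the DNA-binding partners, Tcf7l1 stood at 33.6 and 35.4 FPKM, Tcf7 at 26.3 and 27.8 FPKM and Lef1 lower by 25.4 and 29.5 times than Tcf7l1 in the 2 samples. Of the target genes, the cyclin gene Ccnd1 was highest at 48.6 and 46.9 FPKM. Axin2, a negative feedback scaffold, stood at 18.8 and 20.6 FPKM, and Cdx1 at 16.7 and 18.03 FPKM. Cdx2, its relative and a trophectoderm regulator, stood at 0.0942 and 0.0976 FPKM. T, the mesoderm factor Brachyury, reached 1.70 and 2.09 FPKM, and Lgr5, a receptor for R-spondins, 0.322 and 0.0204 FPKM.

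The FGF and ERK cascade was expressed in 16 of 17 members, 94.1%, with a median of 38.2 FPKM. Its feedback and target genes were expressed in 14 of 18, 77.8%, with a median of 2.05 FPKM. Over all genes the share expressed was 62% and the median 4.34 FPKM. Nras was the highest member at 206 and 203 FPKM, and the kinase gene Mapk3 stood at 39.2 and 40.1 FPKM. Map2k1 and Map2k2, which encode the 2 MEK proteins that PD0325901 inhibits, stood at 45.5 and 41.3 FPKM and 33.7 and 39.4 FPKM. Fgfr1 was the highest receptor at 31.9 and 36.02 FPKM, while Fgfr4 stood at 1.29 and 1.67 FPKM, Fgfr3 at 0.575 and 0.168 FPKM, and Fgfr2 could not be placed to 1 row. Among the targets, Dusp6, the ERK phosphatase gene used as a readout of the cascade, stood at 3.85 and 4.35 FPKM. Egr1, an immediate early gene, stood at 0.202 and 0.142 FPKM, Spry4 at 1.68 and 1.97 FPKM, and Fosl1 at 0 and 0.0443 FPKM. The target list was not uniformly low. Etv5 at 118 and 127 FPKM, Etv4 at 43.9 and 41.8 FPKM and Spry2 at 28.7 and 28.2 FPKM each exceeded 25 FPKM in both samples. Without untreated cells here, the part of the inhibitor in these levels was not tested.

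Related genes often stood far apart in level, and the pairs named here are paralogues picked after their values had been seen, so the gaps are a description. In the BAF remodelling complex, the 14 subunits listed here under embryonic stem cells were all at 10 FPKM or more, against 36.8% of all genes. Their median was 49.4 FPKM. Of 9 subunits listed under differentiated cells 7 were expressed, 77.8% against 62% of all genes, with a median of 5.22 FPKM. These list names do not mean that each subunit is restricted to that cell state. The ATPase Smarca4 (BRG1) stood at 59.3 and 61.7 FPKM and its paralogue Smarca2 (BRM) at 0.605 and 0.402 FPKM, a ratio of 98.0 and 153 in the 2 samples. The histone reader Dpf2 stood at 57.4 and 62.8 FPKM and Dpf3 at 0.707 and 0.930 FPKM, a ratio of 81.1 and 67.6. Smarcc1 exceeded Smarcc2 by less, 8.35 and 8.55 times, and Arid1a exceeded Arid1b 5.09 and 4.65 times.

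The MYC family showed a similar gap, with 10 of 11 members expressed, 90.9% against 62% of all genes. Mycn stood at 41.8 and 44.8 FPKM and Myc at 1.46 and 1.37 FPKM, a ratio of 28.6 and 32.8. Mga, a MAX partner that represses germ cell genes with a Polycomb complex, was the highest member at 122 and 115 FPKM. Among the cyclins, Ccnd1 stood at 48.6 and 46.9 FPKM and Ccnd2 at 0.0830 and 0.0369 FPKM, and among their kinases Cdk4 stood at 659 and 647 FPKM and Cdk6 at 10.6 and 11.7 FPKM. The cell cycle inhibitor Cdkn1a (p21) stood at 117 and 129.9 FPKM, against 0.458 and 0.355 FPKM for Cdkn1c. Ccnd2, Cdk6 and Cdkn1c were thus each at least 50 times lower than the named relative in both samples.

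Cell surface and nuclear envelope genes were as unequal. Cdh1, the epithelial E-cadherin of stem cell colonies, stood at 318 and 343 FPKM, 834 and 1140 times Cdh2. Lmnb1, a B-type lamin of most nuclei, stood at 149 and 161 FPKM, and Lmna, the A-type lamin that rises with differentiation, at 8.69 and 10.5 FPKM, a ratio of 17.2 and 15.3. In glycolysis, Aldoa exceeded the brain form Aldoc 125 and 121 times, with Aldoa at 833 and 804 FPKM. The glucose transporter Slc2a3 at 479 and 495 FPKM lay above the ubiquitous Slc2a1 at 100.5 and 89.9 FPKM. Hk2 stood at 121 and 126 FPKM and Hk1 at 67.99 and 65.2 FPKM. The lists of cyclins, lamins, cadherins and glycolytic genes were drawn up after values of the other lists had been seen.

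**Figure D2:**
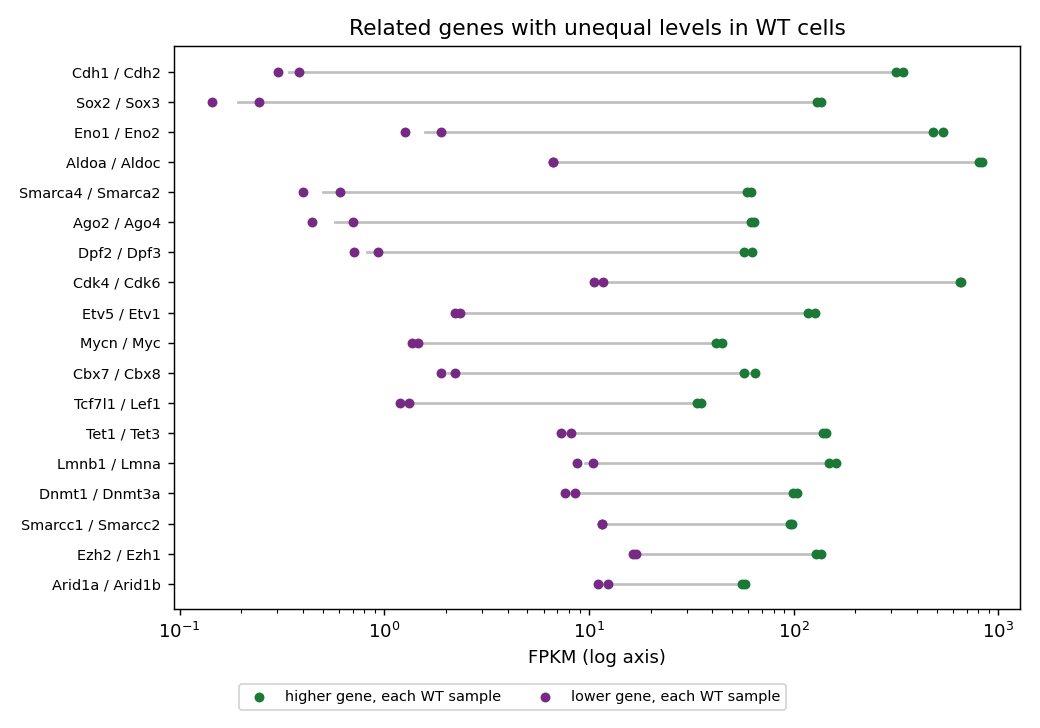
Pairs of related genes (y axis) with the FPKM of each in both WT samples (x axis, log scale), the higher gene in green and the lower in purple, and a grey line between the means. No pair overlaps, from Arid1a and Arid1b with a ratio of means of 4.86 to Cdh1 and Cdh2 with 968.

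Chromatin regulators were broadly on. Of 29 Polycomb genes with a row, 29 were expressed, against 62% of all genes, with a median of 36.7 FPKM. In the methyltransferase complex PRC2, Ezh2 stood at 136 and 128 FPKM and its paralogue Ezh1 at 16.4 and 16.9 FPKM, and the accessory subunits Aebp2 at 132 and 136 FPKM, Mtf2 at 119 and 121 FPKM and Jarid2 at 100.3 and 100.2 FPKM were near 100 FPKM or above. Epop, a subunit largely specific to stem cells, stood at 60.01 and 67.8 FPKM, and Phf19 at 2.23 and 1.58 FPKM. In PRC1 the chromobox protein gene Cbx7 stood at 64.6 and 57.2 FPKM, against 2.21 and 1.90 FPKM for Cbx8, a ratio of 29.3 and 30.0. The catalytic subunit Rnf2 (RING1B) at 40.4 and 42.1 FPKM lay above Ring1 at 6.15 and 5.55 FPKM.

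Of 14 DNA methylation enzymes and partners 14 were expressed, against 62% of all genes. Maintenance genes were high, with Dnmt1 at 99.04 and 104 FPKM and Uhrf1, which brings DNMT1 to replicated DNA, at 196 and 213 FPKM. De novo genes were lower, with Dnmt3a at 7.67 and 8.59 FPKM, Dnmt3b at the level given above and the cofactor Dnmt3l at 8.38 and 8.69 FPKM. Of the oxidases that start demethylation, Tet1 stood at 144 and 139 FPKM, Tet2 at 52.6 and 53.2 FPKM and Tet3 at 7.33 and 8.20 FPKM, so the 3 did not overlap. Zfp57, which protects imprinted methylation, stood at 151 and 154 FPKM. Levels of RNA for these enzymes do not give the methylation of the genome, which was not measured here.

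Lineage regulators were mostly low. The 8 lists of neural, mesoderm, definitive endoderm, germ cell, blood, muscle, liver and HOX genes held 160 genes, of which 137 had a row. Of these 38 were expressed, 27.7% against 62% of all genes. Their median was 0.26 FPKM, and 22 were listed at 0 in both samples, among them Neurog1, Neurog2, Olig1 and Dcx of the neural list. At 10 FPKM or more in both samples were 4: the germ cell genes Dazl and Hormad1, and Hoxb9 and Hoxc13. In bulk RNA, fewer cells of a type and less RNA per cell cannot be told apart, so a low value may be a few cells or a low level in many.

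The neural list had 4 of 20 expressed, led by the adhesion molecule Ncam1 at 8.74 and 8.58 FPKM and the filament gene Nes at 6.11 and 4.98 FPKM. Pax6 stood at 0.315 and 0.555 FPKM and Neurod1 at 1.15 and 1.45 FPKM. The mesoderm list had 2 of 21, Eomes at 4.07 and 4.60 FPKM and T, whose value is given above. Mixl1, a primitive streak gene, stood at 0.0928 and 0.160 FPKM, and Mesp1 at 0.0596 and 0 FPKM. The definitive endoderm list had 4 of 13, led by Hhex at 8.22 and 9.18 FPKM and the organiser gene Gsc at 6.86 and 7.39 FPKM, while Sox17 stood at 0.296 and 0.125 FPKM and Afp was listed at 0 in both. The 10 expressed genes of these 3 lists all lay under 10 FPKM.

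The HOX genes, which pattern the body axis, had 9 of 32 expressed. Hoxb9 was the highest at 28.7 and 28.1 FPKM, Hoxc13 followed at 10.9 and 10.9 FPKM and Hoxc12 at 7.15 and 6.52 FPKM. Hoxb1 and Hoxb6 were listed at 0 in both samples, and Hoxb7 stood at 0.184 and 0.132 FPKM. Hoxc13 and Hoxc12 lie at the end of the HOXC cluster that is active last in the embryo. Strand was not stated for the counting, so sense and antisense reads in these clusters cannot be told apart.

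Of the 8 lists, the germ cell list had the highest share expressed, 15 of 20, against 62% of all genes. Most of these were near the threshold: at 5 FPKM or more in both samples there were 5 of 20, against 8392 of all 17730 genes. Dazl, an RNA-binding protein of germ cells, stood at 152 and 153 FPKM, above Sox2 in both samples. Hormad1, a meiotic chromosome protein, stood at 30.8 and 25.9 FPKM, and Sycp3, of the synaptonemal complex, at 7.64 and 9.06 FPKM. Ddx4, the VASA helicase of later germ cells, stood at 4.80 and 5.31 FPKM, and Prdm1 (BLIMP1), which specifies germ cells, at 6.05 and 7.20 FPKM. Stra8 stood at 3.73 and 3.46 FPKM, Tdrd1 at 0.195 and 0.159 FPKM, and Nanos2 was listed at 0 in both. Without the germ cell list the share of expressed lineage genes was 19.7% (23 of 117).

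Of the lists of extraembryonic lineages, that of trophectoderm had 8 of 15 members expressed, 53.3% against 62% of all genes, with Tfap2c (AP-2 gamma) at 32.4 and 34.9 FPKM and Tead4 at 26.7 and 31.3 FPKM. The other expressed members were lower, with Krt19 at 10.7 and 10.8 FPKM, Krt18 at 10.2 and 9.48 FPKM and Tfap2a at 8.64 and 9.20 FPKM. Krt8 stood at 6.71 and 7.86 FPKM, Gata2 at 3.46 and 3.79 FPKM and Gata3 at 1.48 and 1.56 FPKM. Of the members not expressed, the later genes Elf5 and Gcm1 stood at 0.0339 and 0.0702 FPKM and 0.106 and 0.219 FPKM. The primitive endoderm list had 7 of 11, 63.6%, led by Sparc, a matrix protein, at 87.9 and 94.2 FPKM and Lama1, a laminin chain, at 28.2 and 29.4 FPKM. The regulators of that lineage were lower, with Gata6 at 1.04 and 1.15 FPKM, Pdgfra at 0.215 and 0.308 FPKM and Sox7 at 0 and 0.0653 FPKM. Other matrix genes of the list were lower than Sparc and Lama1, with Lamb1 at 5.58 and 7.33 FPKM, Col4a1 at 3.23 and 3.42 FPKM and Col4a2 at 2.16 and 2.43 FPKM. Gata4 and Dab2 had no row and Fgfr2 could not be placed, so these members of the list were not analysed here.

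Other cells that a culture could hold had mostly low markers, with counts to be read against 62% of all genes expressed. Of 13 fibroblast and feeder markers, 2 were expressed, Pdgfrb at 1.82 and 2.14 FPKM and Col5a1 at 1.44 and 1.51 FPKM, and the summed level of the list was 5.16 and 5.24 FPKM. Col3a1, Dcn, Twist2, Prrx1 and S100a4 were listed at 0 in both samples. Of 14 blood cell markers 2 were expressed, Cd3e at 3.48 and 2.04 FPKM and Spi1 at 2.25 and 1.93 FPKM, with a summed level of 9.46 and 5.75 FPKM. Of 9 genes of the rare state that resembles the 2-cell embryo, 0 were expressed, with Zscan4c at 0.374 and 0.226 FPKM and Zscan4f at 0.688 and 0.398 FPKM. A further 10 genes of that list had no row, and Zscan4 genes are near-identical copies whose levels are uncertain. Of 9 liver genes 0 were expressed, and of 8 skeletal muscle genes 2 were, Ttn at 6.78 and 5.86 FPKM and Des at 5.26 and 4.86 FPKM. Both lay above the median of 4.34 FPKM over all genes.

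**Figure D3:**
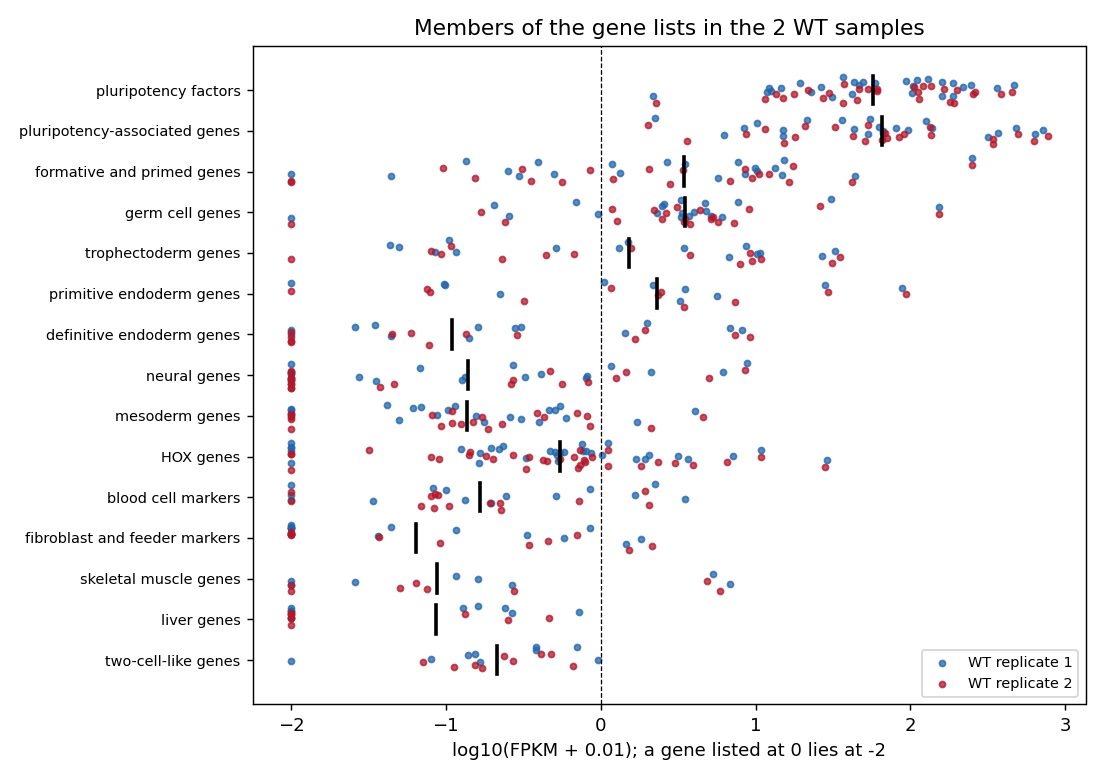
Each point is a gene of a list (y axis) in WT replicate 1 (blue) or 2 (red), on a scale of log10(FPKM + 0.01) on the x axis, with the list median of the means as a black bar and a dashed line at 1 FPKM. The medians run from 57.0 FPKM for pluripotency factors and 65.2 FPKM for associated genes to 0.054 FPKM for fibroblast and feeder markers, with germ cell genes at 3.47 FPKM.

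Families of transcription factors were expressed in part, with shares to be read against 62% of all genes. Among 17 SOX genes 5 were expressed, 29.4%, and after Sox2 the next was Sox15 at 10.5 and 13.2 FPKM. Among 11 POU genes 5 were expressed, 45.5%, with Pou2f1 (OCT1), which is made in nearly all cells, at 15.4 and 14.1 FPKM. Kruppel-like genes were expressed in 14 of 17, 82.4%, and nuclear receptors in 22 of 46, 47.8%. Of 8 PAX genes 1 was expressed, and of 7 LIM homeobox and 6 DLX genes 0 were. The 4 TEAD and 8 E2F genes, which act in proliferation, were all expressed. Of 159 olfactory receptor genes with a row 5 were expressed, 3.14%.

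At the top of the ranking stood the machinery of translation. The 10 highest genes held 8.354 and 8.124% of the summed FPKM, the 100 highest 29.7 and 29.57%, and the 1000 highest 60.87 and 60.58%. Of the 100 highest genes 59 encode cytoplasmic ribosomal proteins, a family of 79 with a median of 954 FPKM. The highest gene was the elongation factor Eef1a1 at 7012 and 6728 FPKM, while its muscle and nerve paralogue Eef1a2 stood at 0.0687 and 0.0843 FPKM. The helicase gene Eif4a2, whose introns hold small nucleolar RNAs, followed at 5208 and 4934 FPKM, then Gapdh at 4621 and 4586 FPKM and Rps24 at 4374 and 4242 FPKM. Hspa8, the constitutive heat shock cognate, stood at 2219 and 3299.9 FPKM, while the stress-induced Hspa1b stood at 1.25 and 1.07 FPKM and Hspa1a at 0.143 and 0.0741 FPKM.

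Replication-dependent histone genes, whose mRNAs end without a poly(A) tail, were among the high genes. Of 59 histone genes, variants outside the histone clusters included, 52 were expressed, with a median of 100.0 FPKM. Hist1h4d, an H4 gene, was the highest at 1649 and 1689 FPKM and ranked 22. Such genes are near-identical copies, and how reads were split between them cannot be known from the tables.

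By transcript class, 16731 protein-coding genes held 96.12 and 96.33% of the summed FPKM, with 64.2% expressed. The 215 long non-coding RNA genes held 0.8256 and 0.7676%, with 22.3% expressed, and 230 pseudogenes held 1.513 and 1.487%, with 20.9% expressed. A few high rows made up much of both shares. The medians of these 2 classes were 0.219 and 0.198 FPKM, while Gm10076 and Gm10222, their highest rows, had means of 2780 and 4082 FPKM. Many of the high rows were near copies of other genes, as given below, so both shares are uncertain. Of 27 structural and nuclear RNAs looked for, such as Malat1, Neat1, Xist and Rn7sk, 0 had a row, so these shares describe the genes in the tables and not all RNA of the cells. Class names came from GENCODE M21.

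Several of the highest rows of the pseudogene and long non-coding classes were near copies of other genes. Gm10222, annotated as a pseudogene, ranked 5 at 4184 and 3979 FPKM. Its 294 bases share 264 of 264 words of 31 bases with the mitochondrial gene mt-Nd4l, a subunit of respiratory complex I of 297 bases, from its first base on. The first 60 bases are shown because they read the same in both genes.
Gm10222: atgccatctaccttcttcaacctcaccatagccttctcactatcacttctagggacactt
No mitochondrial gene had a row in the tables, so reads of mt-Nd4l and of Gm10222 cannot be told apart here. Gm10076, annotated as a long non-coding RNA, ranked 7 at 2901 and 2659.8 FPKM and shared 82.2% of its words with the ribosomal protein gene Rpl41, which had no row. The pseudogene Rps3a2 stood at 516 and 620.1 FPKM and shared 84.8% with its parent Rps3a1, which stood at 366 and 343 FPKM. The pseudogene Hist1h2al at 571 and 573 FPKM shared 79.9% with Gm20634, and Rps3a3 at 321 and 357 FPKM shared 72.3% with Rps3a2. Gm8730 at 418 and 487 FPKM shared 62.8% with Rplp0, and Gm6180 at 94.0 and 102 FPKM shared 60.9% with Cfl1. Gm6483 and Zfp640 shared 50.8% and 49.3%. The levels of all these rows are uncertain for that reason. Less was shared by the pseudogene Rps4l at 395 and 434 FPKM, with 25.6% of words. The long non-coding Gm42743 at 356 and 414 FPKM shared 13.3%. Cct6a at 220 and 220 FPKM shared 2.33%, and it is in that class only because GENCODE M21 marks its identifier as a processed transcript.

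Housekeeping genes were expressed in 14 of 14, from Eef1a1 down to Hprt. Actb stood at 1932 and 2024 FPKM, Tbp at 35.7 and 28.8 FPKM and Hprt, the purine salvage enzyme on the X chromosome, at 4.10 and 4.39 FPKM. Hprt was the lowest of the list in both samples, below B2m at 30.3 and 28.4 FPKM without overlap. E14TG2a is known as a line that was selected for loss of HPRT activity, which is given as background.

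E14TG2a is known as a male line, and genes of the Y chromosome were on. Of 8 Y-linked genes 6 were expressed, Eif2s3y at 50.6 and 54.7 FPKM, Ddx3y at 9.50 and 10.1 FPKM and Kdm5d at 1.65 and 2.06 FPKM among them. The median of the 369 expressed X-linked genes was 0.752 and 0.741 of that of the expressed autosomal genes. Among autosomes, the 562 expressed genes of chromosome 8 had the highest median, 19.08 and 19.57 FPKM, 0.43 and 0.42 above the other autosomes on the log2 scale. Chromosome 6 followed with 529 genes at 17.22 and 18.03 FPKM, 0.28 and 0.29 above. The other 17 autosomes had medians of the means from 13 to 16.4 FPKM. Among genes of at least 10 FPKM, an alternative added after the data had been seen, chromosome 6 lay 0.38 and chromosome 8 0.28 above the other autosomes, and the remaining autosomes lay between -0.27 and 0.07. By the same alternative X lay -0.12 from the autosomes, against -0.43 among genes of at least 1 FPKM (both on the log2 scale). DNA copy number was not measured, and its part in these medians was not tested.

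**Figure D4:**
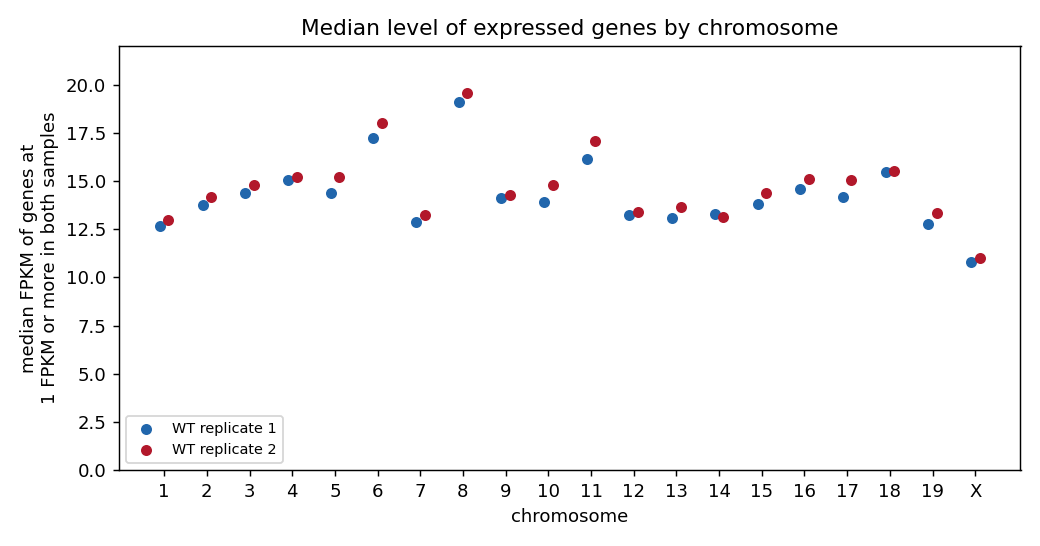
Median FPKM (y axis, from 0) of the genes at 1 FPKM or more in both samples for each autosome and X (x axis), with WT replicate 1 in blue and replicate 2 in red. Chromosome 8 is the highest at 19.08 and 19.57 FPKM, and X lies below every autosome at 10.78 and 10.99 FPKM. Chromosome Y, with 6 expressed genes, is not drawn.

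Between the 2 samples, 25 genes differed by more than 1 on the log2(FPKM + 1) scale. Among genes whose mean reached 10 FPKM, the widest gap was in Rdh13, a retinol dehydrogenase, at 140.2 and 12.1 FPKM, lower in replicate 2 by 3.42. Gm21961 at 113 and 38.2 FPKM and the smooth muscle phosphatase inhibitor gene Ppp1r14a at 18.4 and 10.2 FPKM were also lower in replicate 2. So were an identifier without a symbol at 46.1 and 7.38 FPKM, lower by 2.49, and another at 461 and 266 FPKM, lower by 0.79. The genes that were furthest higher in replicate 2 were Gm10135 at 8.56 and 18.4 FPKM, the ciliary gene Ift140 at 8.93 and 15.9 FPKM, the adenosine kinase gene Adk at 9.26 and 16.1 FPKM, Hist1h2bj at 108 and 176 FPKM and Gadd45a at 10.99 and 17.5 FPKM. Of 34 histone genes with a symbol starting in Hist, which leaves out variants named otherwise, and a mean of 10 FPKM or more, 5 differed by more than 0.5, 14.7% against 0.582% of all genes at that mean, 3 of them lower and 2 higher in replicate 2. Hspa8 differed by 0.57 and so ranked differently in the 2 samples. No marker of the cell type was among these genes.

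**Figure D5:**
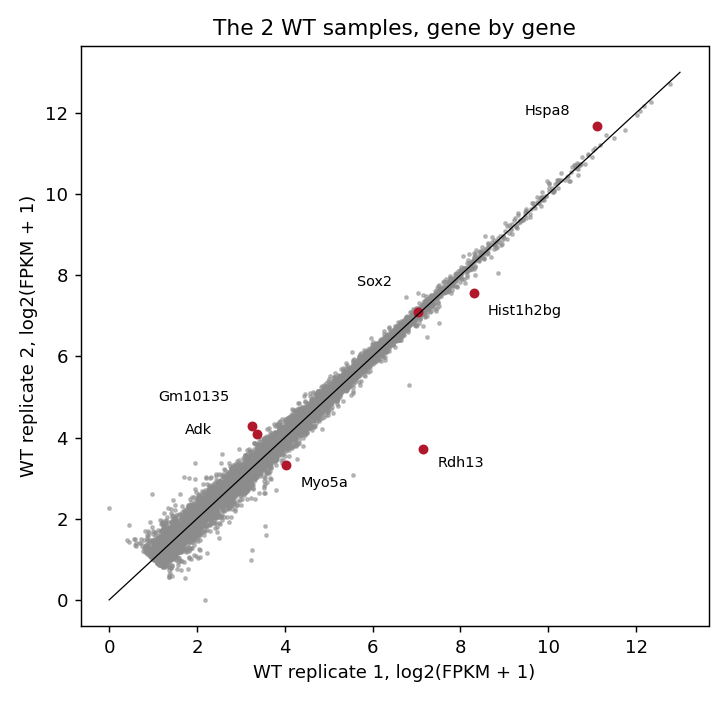
Each grey point is a gene whose mean reached 1 FPKM, at its log2(FPKM + 1) in WT replicate 1 (x axis) and replicate 2 (y axis), with a line where both are equal. Red points mark named genes: Sox2 lies on the line, and Rdh13 lies furthest below it at 140 and 12.1 FPKM.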

How the data were processed

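RNA of the 2 WT samples was analysed. Each sample had 1 deposited file without a header, a gene identifier and a value in each row. The submitters' processing notes name Trimmomatic 0.36, TopHat2 2.0.12, Cufflinks 2.2.1 and build mm9, with no role or order. The values were taken as FPKM made by the authors, inferred from Cufflinks and from the values, which were not whole and whose smallest nonzero level fell with transcript length (Spearman rho -0.397 across 2120 genes). The annotation, strand setting and any scaling between samples are not given in the sources used here. Summed FPKM was 464573 and 475464.

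Of 18774 rows with 17812 identifiers, 660 identifiers had more than 1 row. A row qualified if its chromosome and strand were the most common among 5 single-row neighbours on each side. For 578 identifiers a single row qualified and was kept, and 82 were left out, which gave 17730 genes. Symbols, classes and chromosomes came from GENCODE M21 and a gene name table (17201 genes matched, 529 did not), and promoters from RefSeq on GRCm38.p6, whose coordinates are not those of mm9. Computation used Python 3.11.15, pandas 2.3.3 and scipy 1.17.1. The placing of repeated rows and the replicate difference were tested on simulated data, and the counts of expressed genes were not. The genes named were the highest 25 by rank in part, the markers, up to 6 highest members and members at 0 or without a row of each list, paralogue pairs, and the 5 widest replicate differences each way. Members and lists were chosen with earlier results of these data known. The 6 knockout samples were not used.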

Additional observations from a re-analysis of the deposited data

How the results depend on the processing

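Alternatives were another treatment of repeated identifiers, other thresholds, TPM in place of FPKM, each sample alone, and filters on length and level. Of 362 alternative values over 51 results, 26 moved. The other 336 stayed within the replicate spread or, for counts and the replicate difference, within 1.5 times. Some of the 336 could not have moved. The shares in each sample alone lie within the replicate spread by its definition. The 5 markers, all above 100 FPKM, keep their count at 0.5 and 5 FPKM. Expressed lineage genes fell from 38 to 12 at 5 FPKM. The share of the 100 highest genes was 29.84% without repeated identifiers, 29.38% with their rows summed, 29.19% without genes whose transcripts are all under 300 bases and 29.29% among protein-coding genes alone, an alternative chosen after seeing the data. The share of protein-coding genes was 97.06% without the short genes. Of the counts of 37 other lists, 16 of 296 moved by over 1.5 times, 10 of them at 5 FPKM and none with either sample left out. With each sample alone, the genes at 1 FPKM or more numbered 11183 and 11203. No paired analysis was possible because 1 group was described and no test was made. Absolute depth is unknown, so counting error, and with it the meaning of values near 0, could not be given.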

Other observations

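Further lists, drawn up after values of the first lists had been seen, gave these levels in the same order of samples. Of 11 telomere genes 11 were expressed, with Tert, the catalytic subunit of telomerase, at 10.4 and 10.5 FPKM, Dkc1, which stabilises its RNA, at 189 and 198 FPKM and the shelterin gene Terf1 at 63.7 and 60.7 FPKM. Rif1, which binds damaged telomeres and is high in stem cells, stood at 125 and 123 FPKM. The paralogues Pot1a and Pot1b stood at 40.9 and 39.97 FPKM and 2.51 and 2.86 FPKM.

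Of 18 genes of interferon and virus sensing 11 were expressed, against 62% of all genes, with a median of 4.21 FPKM. The upstream factor Irf3 stood at 18.98 and 19.6 FPKM and the receptor gene Ifnar1 at 13.3 and 14.7 FPKM. The sensor gene Ddx58 (RIG-I) stood at 2.88 and 2.75 FPKM, Ifih1 (MDA5) at 0 and 0.0131 FPKM and Tlr3 at 0.0347 and 0.0360 FPKM. Of the interferon-induced genes, Isg15 stood at 0.113 and 0 FPKM and Mx1 at 0.267 and 0.196 FPKM, while Oas1a stood at 6.01 and 7.42 FPKM. The adaptor Mavs and the kinase Eif2ak2 (PKR) were both above 10 FPKM, at 15.2 and 16.4 FPKM and 12.04 and 13.2 FPKM.

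Of 14 genes of small RNA machinery 11 were expressed, 78.6% against 62% of all genes. The nuclease genes Drosha and Dicer1 stood at 71.4 and 77.4 FPKM and 30.4 and 32.8 FPKM. Of the Argonautes, Ago2, which cleaves its targets, stood at 61.6 and 64.2 FPKM, Ago1 at 23.2 and 23.4 FPKM, Ago3 at 5.58 and 4.41 FPKM and Ago4 at 0.443 and 0.707 FPKM, an order that was the same in both samples without overlap. Lin28a, which blocks let-7 maturation, at 10.1 and 11.5 FPKM lay above Lin28b at 2.36 and 2.16 FPKM. Of the PIWI genes of germ cells, Piwil2 stood at 3.19 and 4.16 FPKM and Piwil1 at 0.422 and 0.306 FPKM.

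Of 15 members of the BCL2 family that govern cell death, 12 were expressed, 80.0% against 62% of all genes. The killer genes Bax at 106 and 121 FPKM and Bak1 at 36.9 and 36.7 FPKM and the sensitisers Bbc3 (PUMA) at 20.6 and 20.1 FPKM and Pmaip1 (NOXA) at 13.6 and 12.4 FPKM were on beside the guardians Mcl1 at 69.4 and 69.7 FPKM and Bcl2l1 at 25.4 and 27.8 FPKM. Bcl2 itself stood at 0.0374 and 0.0291 FPKM. Bcl2l2 was listed at 239 and 260.4 FPKM, but it is known to overlap its neighbour Pabpn1 in joint transcripts, so its level is uncertain.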
